A study of Mus musculus with 77 samples.

Results

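Lungs of Trem2 knockout mice that had breathed 75% oxygen from within 24 h of birth until postnatal day 14 were compared with lungs of Trem2 knockout mice of the same age kept in room air. The comparison rests on 8 RNA-seq libraries, 4 per exposure, of the 77 samples in the series, and it took in every gene of the deposited table. All 8 libraries came from whole lung, perfused with PBS and snap frozen, and all carry a male mark in their column names. The knockout line was purchased from Jackson Laboratory, and every group compared here except B6 carries the knockout, so room-air knockout lung is the control. The labels do not say which stretch of Trem2 the line lacks. B6 lungs (C57BL/6J mice, 4 libraries in room air and 3 in the same hyperoxia, both sexes) stand in the same table and served to test whether the knockout's response differed. The labels do not say that libraries came from different mice, and p-values therefore measure only the spread among these libraries. In this series the p53 protein was also mapped by ChIP-seq in knockout lung, with 2 samples per exposure.

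High oxygen during the first weeks of life damages a lung that is still forming its alveoli. In rodents it injures capillary endothelium and alveolar epithelium and slows the septation that divides air sacs, and survivors keep fewer, larger air spaces. Oxygen radicals break DNA and oxidize proteins. Cells answer through p53, which stops the cell cycle and can start cell death, through NRF2, which switches on glutathione and thioredoxin enzymes, and through ATF4, which drives amino acid supply under stress. Trem2 is a surface receptor of macrophages that binds lipids and signals through the adaptor Tyrobp.

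Levels are in TPM, a transcript's share of all transcripts after scaling to its length. Changes are log2 differences of TPM + 1 between the hyperoxia and room-air means, with the standard error of the model, so they understate the change of genes with a few TPM. A gene rose or fell here only if its adjusted p was below 0.05 in limma's test over the 15614 genes with at least 1 TPM in at least 3 of 15 libraries. Libraries are numbered by the order of their columns, and 4 per group limits the precision.

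The table listed 24940 genes, whose TPM values summed to 529199 to 544857 over the 15 libraries. These sums are short of the total to which TPM is scaled, and the reason was not tested. The steps between low TPM values put the knockout libraries at 18.5 to 29.7 M counted reads, the lowest being room-air library 2. Correlations of log2 values were 0.971 to 0.979 among room-air libraries, 0.979 to 0.985 among hyperoxia libraries and 0.955 to 0.976 between the exposures. Room-air libraries 1 and 2 carry an earlier date code in their column names than room-air libraries 3 and 4 and all hyperoxia libraries. Trem2 was at 1.13, 1.05, 2.75 and 1.45 TPM in room air and at 1.97, 2.67, 1.96 and 2.23 TPM in hyperoxia, where B6 lung had means of 3.17 and 8.10 TPM. Both knockout groups thus lay below the B6 means, while the knockout groups overlapped (0.35 ± 0.20, adjusted p = 0.236). Without room-air library 3, the highest of its group, Trem2 was called at 0.54 (adjusted p = 0.0454). Trp53, which encodes p53, ranged from 33.4 to 36.1 TPM in room air and from 37.1 to 46.6 TPM in hyperoxia, and its difference of 0.23 ± 0.10 missed the threshold (adjusted p = 0.131) although the groups did not overlap. The lung's defining genes were high everywhere. Sftpc, the surfactant protein of type 2 cells, had means of 23216 and 20929 TPM, and Ager, a surface receptor of type 1 cells, of 1122 and 1231 TPM. Heart muscle genes varied between libraries of both groups: the list of 21 summed to 70.5 to 473 TPM in room air and to 59.2 to 245 TPM in hyperoxia, and 1 of its members was called, a count that was 6 without room-air library 1 and 0 without room-air library 2 or hyperoxia library 1.

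Oxygen changed 3079 of the 15614 genes tested (19.7%), of which 1657 rose (10.6% of those tested) and 1422 fell (9.11%). The changes were mostly small. Their median size was 0.46 log2 units, and 129 genes rose and 86 fell by at least 1. Over all genes tested the median difference was 0.0053. TPM values are shares of a total, so a rise or fall of all RNA could not show in this median. The libraries of both exposures did not overlap at all for 2631 of the 3079 called genes, though a call itself favours such genes. Over all genes tested, 12.8% had no overlap with hyperoxia higher and 11.6% with hyperoxia lower. Fewer cells of a type and less RNA per cell cannot be told apart in whole-lung RNA, and this holds for every cell type list that follows. Comparing only the libraries of the later date code, 2 in room air against 4 in hyperoxia, 2117 genes (13.6%) were called. Of the 3079, 1697 were called again, and 3079 of 3079 had the same sign. These libraries are part of those that gave the 3079 calls, so the shared sign is no separate support. Leaving out 1 of the 15 libraries gave 2114 to 3293 calls, the lowest without room-air library 4, and the count of falls went down to 939 without hyperoxia library 2.

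**Figure D1:**
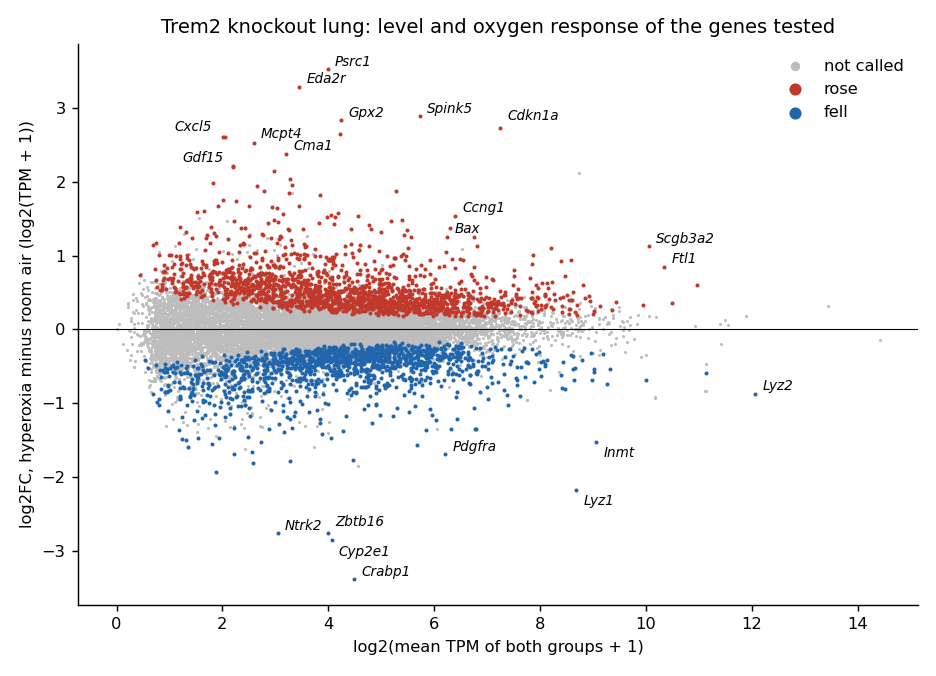
Each point is 1 of 15614 genes in Trem2 knockout lung, placed by its mean level over both exposures (horizontal, log2 of mean TPM + 1) and its log2 difference between hyperoxia and room air (vertical); red genes rose, blue genes fell and grey genes were not called. Psrc1, Eda2r and Spink5 lie highest, Crabp1 lies lowest, and the 1657 genes that rose and 1422 that fell are of similar number.

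The largest rises named p53 targets, an airway protease inhibitor, a glutathione peroxidase and mast cell proteases. Psrc1, which encodes a microtubule-binding protein of the spindle and is a p53 target, was at 1.03, 1.52, 2.94 and 0.988 TPM in room air and at 21.1, 31.2, 26.6 and 33.6 TPM in hyperoxia. Every hyperoxia library was far above every room-air library, and the difference was 3.51 ± 0.23 (adjusted p = 1.44e-07). Spink5, a serine protease inhibitor of epithelia, was at 17.5, 12.6, 9.78 and 8.51 TPM in room air and held within 90.4 to 95.1 TPM in hyperoxia, a rise of 2.88 ± 0.15 (adjusted p = 2.18e-08). Pigr, the receptor that carries IgA across epithelium, rose by 2.64 ± 0.34 from 4.26 ± 1.87 to 31.0 ± 7.32 TPM (SD, n = 4 each). Ano3, of a family of membrane scramblases and channels, was at or below 0.172 TPM in room air and at 3.70, 7.60, 4.88 and 7.71 TPM in hyperoxia (2.60 ± 0.19). Snhg15, a host transcript of small nucleolar RNAs, rose by 2.03 ± 0.18 and Cst8, a cystatin, by 2.19 ± 0.27.

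The largest fall was that of Crabp1, which encodes a cytosolic retinoic acid binding protein. It was at 32.9, 45.9, 39.6 and 41.3 TPM in room air and at 2.11, 2.53, 2.94 and 4.44 TPM in hyperoxia, and fell by 3.38 on the log2 scale (adjusted p = 1.53e-07) with no overlap. Cyp2e1, a cytochrome P450 that oxidizes small solvents and ethanol, went from 28.4 ± 7.96 to 3.05 ± 0.944 TPM (-2.85 ± 0.35). Ntrk2, the receptor of the neurotrophin BDNF, was at 12.0, 18.98, 11.5 and 11.1 TPM in room air and between 0.785 and 1.58 TPM in hyperoxia (-2.76 ± 0.19), so its lowest room-air library was well above its highest hyperoxia library. Rgs2, a brake on G protein signalling, fell in all hyperoxia libraries to 21.8 to 27.7 TPM from 62.4 to 83.0 TPM (-1.56 ± 0.10, adjusted p = 1.44e-07). Havcr1 (-1.69 ± 0.19), A2m (-1.45 ± 0.20), a broad protease inhibitor, and Adcy8 (-1.41 ± 0.18), an adenylyl cyclase, followed.

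**Figure D2:**
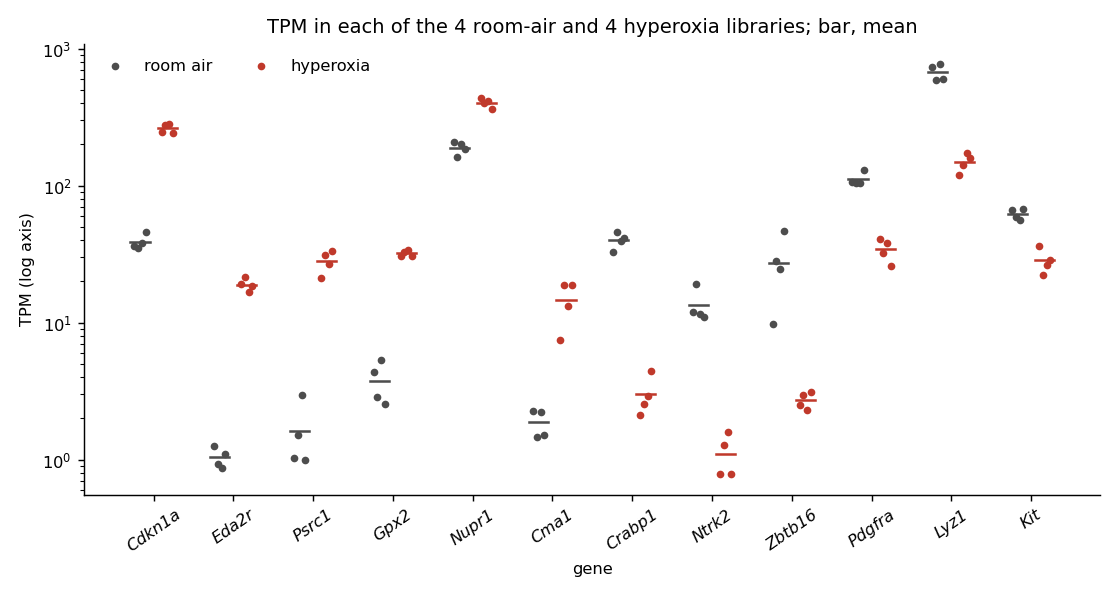
TPM of 12 genes on a log axis in each Trem2 knockout library, with grey points for the 4 room-air libraries, red points for the 4 hyperoxia libraries and a bar at each mean. The points of both exposures are apart for every gene shown; Zbtb16 has the widest room-air spread, from 9.81 to 46.9 TPM.

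The p53 targets answered in the knockout lung. p53 binds DNA as a tetramer at paired copies of a short sequence, and Cdkn1a, which encodes the cell cycle inhibitor p21, is its best known target. Of 30 arrest and feedback targets tested, 17 rose and 2 fell, with a median difference of 0.56, and of 21 cell death targets 11 rose and 0 fell, with a median of 0.41. The median over all genes was 0.0053. Cdkn1a was at 36.0, 35.1, 38.3 and 46.0 TPM in room air and at 248, 275, 284 and 243 TPM in hyperoxia. The groups were separated by a wide gap, and the rise was 6.75-fold in mean TPM or 2.73 ± 0.11 (adjusted p = 5.26e-10).

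Eda2r, a death receptor of the ectodysplasin pathway on the X chromosome, was at 1.26, 0.932, 0.871 and 1.10 TPM in room air and at 19.04, 21.4, 16.6 and 18.4 TPM in hyperoxia (3.28 ± 0.13, adjusted p = 6.72e-10). No other death target came near that size. Bax, which opens the mitochondrial outer membrane, rose from 43.8 ± 4.43 to 106 ± 6.23 TPM (1.25 ± 0.08), Pidd1 by 1.31 ± 0.14 and Aen, an apoptotic nuclease, by 1.12 ± 0.13. Among arrest and feedback targets, Gtse1 rose by 1.87 ± 0.18, Zmat3, an RNA-binding growth suppressor, by 1.57 ± 0.09, Ckap2 by 1.55 ± 0.15 and Ccng1, cyclin G1, by 1.54 ± 0.12. Mdm2, the ligase that degrades p53, rose less, from 48.3 ± 4.73 to 75.2 ± 3.97 TPM (0.63 ± 0.07, adjusted p = 6.35e-05). The 2 members that fell were Mdm4, an inhibitor of p53 (-0.45 ± 0.09), and Sesn1, a stress-induced regulator of mTORC1 (-0.70 ± 0.10).

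Not every target moved. Fas, the death receptor for FasL, was at 48.2, 48.3, 47.8 and 59.6 TPM in room air and at 43.5, 49.7, 41.0 and 44.8 TPM in hyperoxia, overlapping groups with a difference of -0.18 ± 0.09 (adjusted p = 0.169). Perp, a desmosomal p53 effector, was likewise not called (0.26 ± 0.13, adjusted p = 0.163). In B6 lung both had higher means in hyperoxia, Fas at 42.6 and 88.6 TPM and Perp at 7.78 and 26.2 TPM, and the knockout response was smaller than that of B6 by 1.22 log2 units for Fas (adjusted p = 2.39e-05) and by 1.36 for Perp (adjusted p = 0.000136). Sesn1 went opposite ways, falling in the knockout and reaching 74.1 TPM from 28.6 TPM in B6 lung, a difference of responses of -2.03 (adjusted p = 8.65e-07). Trp53inp1, which promotes p53 phosphorylation, rose in the knockout by 0.68 ± 0.13, less than in B6 by 1.48 log2 units. Fas, Perp, Sesn1 and Trp53inp1 were picked out after their values were seen. Of the 30 arrest and feedback targets, 8 responded more positively in the knockout than in B6 lung and 7 more negatively. Of the 21 cell death targets, 4 responded more positively and 5 more negatively, where over all genes tested 16.4% and 8.98% did. The median differences of responses were 0.014 and 0.10 for these lists.

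Hyperoxia p53 peaks lay near 4 of these targets, a larger share than among all genes tested. The authors pooled each exposure's samples and listed 134 peaks in hyperoxia and 179 in room air, each 201 bp wide, of which 2 hyperoxia peaks shared at least 1 base with a room-air peak. The authors' peak score, tags scaled by the authors to a fixed total, had a median of 7.0 in both lists but reached 10 in 17 hyperoxia peaks and 1 room-air peak. Peaks held 0.0106% of the tags in hyperoxia and 0.0119% in room air, so most tags lay outside them in both. Of 47 p53 targets tested, 4 had a hyperoxia peak within 10 kb of a start site and 0 had a room-air peak. Of all 15614 genes tested, 68 had such a hyperoxia peak and 53 a room-air peak. The 4 were Cdkn1a, with a score of 22, Ei24 (12), Zmat3 (9) and Eda2r (8), and all 4 genes rose. Trp53cor1, the long non-coding RNA next to Cdkn1a, had a peak of score 16 at its start and rose by 0.89 ± 0.17. With 1 pooled list per exposure, peaks could not be tested between exposures.

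Within 10 kb of a start site, hyperoxia peaks had 68 tested genes, of which 13 rose and 13 fell (38.2%, against 19.7% of all genes tested). Room-air peaks had 53, of which 5 rose and 8 fell (24.5%). Calls near hyperoxia peaks thus went in both directions. Cdc42ep4, which binds the small GTPase Cdc42 and has a peak of score 15, fell by 0.43 on the log2 scale.

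The Cdkn1a peak spans chr17:29090852-29091052 of mm10, and the letters searched begin 2838 bp before the gene's main start. The part of it that lies upstream of an alternative RefSeq start is shown because it holds the letters searched for p53, in capitals (RefSeq, GRCm38.p6, chr17:29090852-29090978, plus strand).
Cdkn1a peak: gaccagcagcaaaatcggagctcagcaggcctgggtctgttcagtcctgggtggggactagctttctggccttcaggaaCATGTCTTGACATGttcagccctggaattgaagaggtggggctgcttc
The letters searched were CATG, any 6 bases and CATG again, which read the same on both strands. Of 11640 tested genes with a RefSeq promoter window (74.5% of those tested; 250 bases before to 50 after a start), 0.395% held them, among them Cdkn1a alone of 22 arrest targets and 0 of 17 death targets. A match describes letters and not a bound site.

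NRF2 targets rose widely. NRF2 is released from its inhibitor Keap1 when oxidants modify that protein. Of 46 members tested, 35 rose and 0 fell, and the median was 0.54. Within the later date code 26 rose and 2 fell, and with the date code as a term 29 rose. Gpx2, a glutathione peroxidase of epithelia, was at 4.37, 2.84, 5.32 and 2.56 TPM in room air and at 30.6, 32.6, 34.1 and 30.6 TPM in hyperoxia. All hyperoxia libraries were alike and far above room air (2.83 ± 0.16, adjusted p = 3.45e-08). Nqo1, a quinone reductase, rose by 1.57 ± 0.16, Srxn1, sulfiredoxin, by 1.44 ± 0.12, Gsta3, a glutathione transferase, by 1.27 ± 0.10 and Txnrd1, thioredoxin reductase, by 0.81 ± 0.08. Gclc, the catalytic subunit of the enzyme that starts glutathione synthesis, rose from 47.8 ± 6.58 to 100.4 ± 18.02 TPM (1.05 ± 0.14). This rise was smaller than that of B6 lung, by 0.89 log2 units (adjusted p = 0.00502). Prdx1, a peroxiredoxin, was at 244, 217, 246 and 208 TPM in room air and at 330.4, 377, 310.0 and 339.6 TPM in hyperoxia (0.57 ± 0.09), so even this abundant enzyme had no overlap between exposures. Nfe2l2, which encodes NRF2 itself, was at 109 ± 7.06 and 105 ± 2.79 TPM (-0.05 ± 0.10, adjusted p = 0.767).

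The antioxidant response element bound by NRF2 is shown in capitals for 2 risen members whose match lies upstream of the start (RefSeq, GRCm38.p6). Gsta3 reads chr1:21240448-21240488, plus strand, and Prdx1 chr4:116685450-116685490, plus strand, where the element stands in the reverse direction.
Gsta3: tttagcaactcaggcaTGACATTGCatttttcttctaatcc
Prdx1: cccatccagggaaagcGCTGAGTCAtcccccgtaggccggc
The letters TGACNNNGC, on either strand, were in the window of 13 of 38 members with one (34.2%), against 16.8% of all 11640 genes, and in 8 of the 29 that rose. The first letters of this motif are shared with the AP-1 motif.

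Targets of ATF4 rose in part. Of 43 members tested, 18 rose and 1 fell, with a median of 0.21. Gdf15, a secreted stress cytokine that p53 also drives, was at 0.705, 0.619, 0.800 and 0.329 TPM in room air and at 6.27, 6.83, 8.81 and 4.42 TPM in hyperoxia, without overlap (2.21 ± 0.18, adjusted p = 1.45e-06). Nupr1, a small chromatin protein of stressed cells, was far more abundant, at 208, 162, 199 and 186 TPM in room air against 439, 402, 415 and 359.6 TPM in hyperoxia (1.10 ± 0.10). It too had no overlap. Trib3, a pseudokinase that restrains ATF4, rose by 1.29 ± 0.18, Atf3 by 1.16 ± 0.24, Mthfd2, a mitochondrial folate enzyme, by 1.04 ± 0.23, Slc7a11, the cystine importer, by 0.96 ± 0.20 and Asns, asparagine synthetase, by 0.89 ± 0.14. Atf4 itself, whose activity is set mainly by translation, was at 160.2 ± 8.76 and 171 ± 6.00 TPM (0.09 ± 0.06, adjusted p = 0.293). Of 28 genes of the unfolded protein response and heat shock, 2 rose and 2 fell, with a median of 0.017, no larger a share than over all genes, and 4 rose and 4 fell within the later date code. Hspa5, the main chaperone of the endoplasmic reticulum, was at 446 ± 46.6 and 480 ± 17.6 TPM and was not called. The metallothioneins Mt1 and Mt2, which bind zinc and copper, rose by 1.25 ± 0.23 and 0.91 ± 0.18.

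The ATF4 element, in capitals, is shown for 3 risen members (RefSeq, GRCm38.p6, minus strand of the genome for all 3). They read chr1:191183420-191183459 for Atf3, chr7:126625557-126625596 for Nupr1 and chr3:50443656-50443695 for Slc7a11. Slc7a11 holds another match closer to the start, from base -47, that is not marked.
Atf3: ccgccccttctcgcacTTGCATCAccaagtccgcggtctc
Nupr1: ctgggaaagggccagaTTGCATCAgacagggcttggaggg
Slc7a11: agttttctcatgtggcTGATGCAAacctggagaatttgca
The letters TGATGNAA, on either strand, were in the windows of 13 of 34 members (38.2%), against 2.87% of all genes, and in 7 of the 15 that rose. In Atf3 and Nupr1 they stand in the reverse direction.

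Genes of DNA replication and mitosis rose beside the cell cycle inhibitor. Of 51 replication genes 31 rose and 0 fell, with a median of 0.48, and of 56 mitosis genes 33 rose and 0 fell, with a median of 0.47. Without room-air library 4 the counts were 20 and 19, mitosis had 19 and 20 without hyperoxia library 1 or 4, and it had 22 within the later date code. All 51 and all 56 had differences above 0. The changes were modest. Rrm1, a subunit of ribonucleotide reductase, was at 21.3, 24.0, 20.7 and 19.1 TPM in room air and at 36.0, 33.0, 32.2 and 34.5 TPM in hyperoxia, without overlap (0.65 ± 0.07, adjusted p = 4.05e-05). Tk1, thymidine kinase, rose from 7.48 ± 0.823 to 13.03 ± 1.57 TPM. Cdk1, the kinase that starts mitosis, was at 8.82, 5.53, 8.20 and 6.71 TPM in room air and at 13.1, 11.0, 13.2 and 14.2 TPM in hyperoxia (0.75 ± 0.13, adjusted p = 0.00152). Top2a, topoisomerase 2 alpha, rose by 0.63 ± 0.13. Mki67, the common proliferation mark, was at 24.6, 21.3, 19.6 and 17.6 TPM in room air and at 33.4, 22.0, 26.6 and 28.0 TPM in hyperoxia, groups that overlapped, and was not called (0.38 ± 0.15, adjusted p = 0.0855), though it was without B6 room-air library 1 (0.38, adjusted p = 0.0408) or with the date code as a term (0.53, adjusted p = 0.045). Of the replication genes, 21 had a more positive response than B6 lung and 1 a more negative one, where over all genes tested 16.4% and 8.98% did.

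Letters that match the CHR element, bound by the MuvB complex that times mitotic genes, are shown in capitals for Cdk1 (chr10:69352962-69352999) and Top2a (chr11:99024347-99024384). Letters that match the E2F element are shown for Rrm1 (chr7:102441612-102441650). The first 2 are on the minus strand and the last on the plus strand (RefSeq, GRCm38.p6). Cdk1 and Top2a each hold another CHR match closer to the start, from base -15 and base -23, that is not shown.
Cdk1: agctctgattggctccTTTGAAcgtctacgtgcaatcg
Top2a: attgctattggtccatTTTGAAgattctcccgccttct
Rrm1: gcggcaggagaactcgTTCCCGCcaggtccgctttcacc
The letters TTTGAA, on either strand, were in 33 of 47 mitosis windows (70.2%), against 14.6% of all genes, and in 17 of 27 that rose. The letters TTCCCGC were in 17 of 41 replication windows (41.5%), against 9.19%, and in 8 of 25 that rose.

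**Figure D3:**
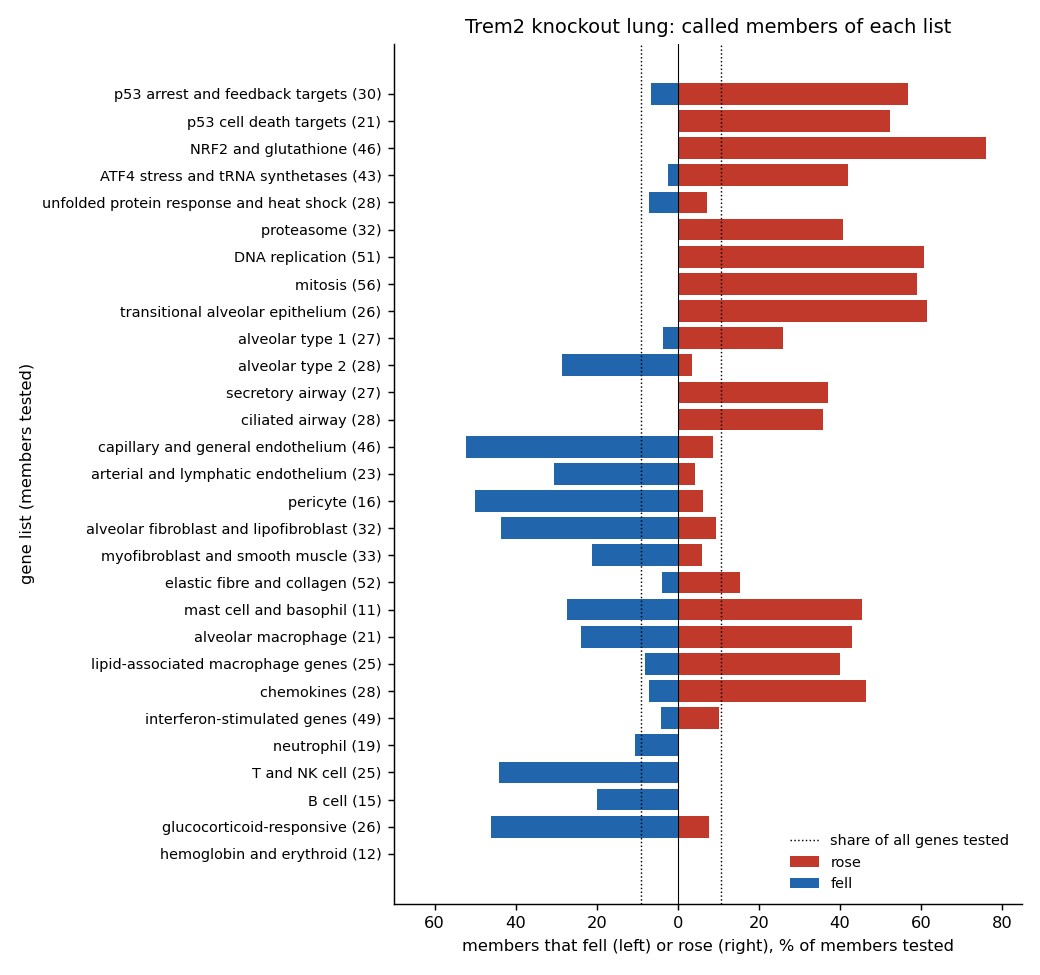
For 29 gene lists, the percentage of members tested that rose (red, to the right) or fell (blue, to the left) in Trem2 knockout lung, with the number tested in parentheses. Dotted lines mark the 10.6% of all genes that rose and the 9.11% that fell; NRF2 and glutathione genes reach farthest right (35 of 46) and endothelial genes farthest left (24 of 46).

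In the epithelium, airway and stress-associated genes rose while several secretory genes of type 2 cells fell. Type 2 cells make surfactant and renew the alveolar surface, and type 1 cells form its thin lining. After injury, cells between both states carry Krt8 and Cldn4. Of 26 genes of that transitional state 16 rose and 0 fell (median 0.43), though Cdkn1a, Mdm2 and Nupr1 are among them and already counted, and 8 rose with the date code as a term. Krt8, a keratin of simple epithelium, rose from 73.1 ± 12.3 to 107 ± 9.99 TPM (0.55 ± 0.15, adjusted p = 0.0201), a call lost without room-air library 2 (0.44, adjusted p = 0.0668) or 4 (0.53, adjusted p = 0.0525) or hyperoxia library 1 (0.50, adjusted p = 0.0548) and with the date code as a term (0.50, adjusted p = 0.105). Lgals3, galectin-3, which macrophages also express, rose from 48.0 ± 9.53 to 86.5 ± 14.4 TPM (0.84 ± 0.14).

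Of 28 type 2 genes 8 fell and 1 rose (median -0.20), with 4 falls without room-air library 1 or hyperoxia library 2, and 5 without room-air library 2 or hyperoxia library 4, with the date code as a term or within the later date code. Lyz1, a lysozyme, was at 734, 588, 765 and 602 TPM in room air and at 119, 142, 174 and 159 TPM in hyperoxia, and fell by 2.17 on the log2 scale without overlap. Lyz2, its neighbour of near-identical sequence that macrophages also express, fell by 0.87, and reads of these copies may be split between them. Sftpc, the most abundant surfactant gene, was not called, at -0.15 ± 0.20 (adjusted p = 0.647). Of 27 type 1 genes 7 rose and 1 fell (median 0.22), but 3 rose without room-air library 2 or without hyperoxia library 1 or 4, and 1 with the date code as a term. Krt7, for example, was at 226, 168, 229 and 223 TPM in room air and at 301, 299, 284 and 253 TPM in hyperoxia, and it was called (0.43 ± 0.11, adjusted p = 0.0121) except with the date code as a term (0.32, adjusted p = 0.0654).

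Airway genes rose in both of their lists. Of 27 secretory genes 10 rose and 0 fell (median 0.34), though Nupr1 and Aldh1a1 are among the 10 and counted in other lists too. Scgb3a2, a secretoglobin of bronchiolar cells, had means of 683 ± 180 TPM in room air and 1455 ± 112 TPM in hyperoxia (1.12 ± 0.17, adjusted p = 0.000516). Hp, haptoglobin, went from 263 ± 33.1 to 506 ± 71.7 TPM (0.94 ± 0.12), while Scgb1a1, the main club cell product, overlapped between exposures (0.32 ± 0.22, adjusted p = 0.342). Of 28 genes of ciliated cells 10 rose and 0 fell (median 0.40), 5 without room-air library 2 or 4, 6 without hyperoxia library 3 or 4 and 4 with the date code as a term. Tekt1, a protein of ciliary microtubules, was at 7.82, 4.03, 6.89 and 4.29 TPM in room air and at 11.1, 9.64, 12.5 and 12.1 TPM in hyperoxia, without overlap (0.91 ± 0.18). Among 19 genes of ion and water transport 5 rose and 1 fell (median 0.23), 3 rising without room-air library 2 or 3 or any 1 hyperoxia library and 2 with the date code as a term. Scnn1b, the beta subunit of the epithelial sodium channel that clears alveolar fluid, was at 31.0, 18.3, 26.5 and 24.3 TPM in room air and at 49.9, 45.9, 53.7 and 46.7 TPM in hyperoxia (0.97 ± 0.14, adjusted p = 0.000253).

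Endothelial genes fell. Capillaries grow with the septa that divide the air spaces. Of 46 capillary and general endothelial genes 24 fell and 4 rose (median -0.35), 2 rising without room-air library 3 or hyperoxia library 2. Ptprb, a phosphatase that restrains the angiopoietin receptor, was at 155, 154, 136 and 155 TPM in room air and at 81.8, 75.9, 87.9 and 85.8 TPM in hyperoxia. No library of either exposure came near the other (-0.85 ± 0.07, adjusted p = 2.45e-06), and this fall was larger than in B6 lung by 0.70 log2 units (adjusted p = 0.000313). Tek, that angiopoietin receptor itself, was at 123, 134, 116 and 133 TPM in room air and at 81.7, 68.0, 79.6 and 73.4 TPM in hyperoxia (-0.74 ± 0.08). Glp1r fell by 1.15 on the log2 scale and Aplnr, the apelin receptor of capillaries, by 0.77. Pan-endothelial genes moved less: Cdh5, the cadherin of endothelial junctions, fell from 475 ± 32.1 to 333 ± 40.3 TPM (-0.52 ± 0.10) and Pecam1 from 445 ± 40.9 to 344 ± 14.7 TPM (-0.36 ± 0.08; -0.25 with adjusted p = 0.0549 within the later date code).

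Not all capillary genes followed. Kdr, the main receptor of vascular endothelial growth factor, was at 126 ± 15.2 and 123 ± 12.6 TPM (-0.03 ± 0.12), and its ligand gene Vegfa at 344 ± 33.2 and 349 ± 39.3 TPM (0.02 ± 0.09). Of 18 genes of aerocytes, the large capillary cells that face the air, 4 rose and 3 fell (median -0.06). The falls were 0 without room-air library 4 and 1 without room-air library 2 or hyperoxia library 1, 2 or 4, and the rises were 2 without room-air library 1 or 3 or hyperoxia library 2 or 3. With the date code as a term 2 rose and 1 fell. Apln, the apelin peptide of these cells, was at 51.0, 55.8, 46.3 and 48.8 TPM in room air and at 73.2, 115, 92.8 and 92.9 TPM in hyperoxia, so it rose without overlap (0.86 ± 0.12). In B6 lung its means were 52.3 and 33.2 TPM, and the responses differed by 1.51 (adjusted p = 4.28e-05). Of 23 arterial and lymphatic genes 7 fell and 1 rose (median -0.29). Cxcl12, a chemokine of arterial endothelium and stroma, fell by 1.08 on the log2 scale and Gja4, the arterial connexin 37, by 1.06.

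Pericytes, which wrap capillaries, showed a similar count: of 16 genes 8 fell and 1 rose (median -0.39). Agtr1a, the angiotensin receptor, was at 19.2, 17.5, 18.2 and 22.5 TPM in room air and at 9.44, 7.92, 10.3 and 9.25 TPM in hyperoxia, without overlap (-0.99 ± 0.09, adjusted p = 7.05e-06). Kcnj8, a subunit of the ATP-sensitive potassium channel, fell by 0.83 on the log2 scale. Cspg4, which encodes the pericyte marker NG2, was at 5.49 ± 0.975 and 7.88 ± 1.57 TPM and was not called.

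Fibroblast genes of the alveolar wall fell. Of 32 alveolar fibroblast and lipofibroblast genes 14 fell and 3 rose (median -0.35), where the B6 median was -0.64. Of the 32, 12 responded more positively in the knockout than in B6 lung and 2 more negatively, against 16.4% and 8.98% of all genes tested. Pdgfra, the receptor that septating fibroblasts need, was at 107, 104, 104 and 130.2 TPM in room air and at 41.1, 32.4, 38.0 and 25.9 TPM in hyperoxia. Every room-air library was well above every hyperoxia library (-1.69 ± 0.15, adjusted p = 2.53e-06), and the fall exceeded that of B6 lung by 1.07 log2 units (adjusted p = 0.00221). Inmt, a methyltransferase of these cells, was at 683, 829, 716 and 936 TPM in room air and at 279, 321, 293 and 209 TPM in hyperoxia (-1.52 ± 0.29, adjusted p = 0.00206). Slc7a10, an amino acid transporter of lipofibroblasts, fell by 1.02 on the log2 scale and Fgf10, which instructs the epithelium, by 0.49. The response of Slc7a10 was more positive than that of B6 lung by 1.60 log2 units, so it fell less in the knockout. Meox2, a homeobox gene, went the other way, from 34.4 ± 4.17 to 55.6 ± 7.21 TPM (0.68 ± 0.15), where B6 lung had means of 52.4 and 15.01 TPM, and the responses differed by 2.42 (adjusted p = 7.40e-06).

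Matrix genes had called members in both directions. Of 52 genes of elastic fibres and collagens 8 rose and 2 fell (median 0.046). The 19.2% called is near the 19.7% over all genes tested. Of the list 4 rose without hyperoxia library 4, and 5 without hyperoxia library 1 or room-air library 2 or with the date code as a term. The falls numbered 4 without B6 hyperoxia library 3 and 7 within the later date code, and 12 rose and 7 fell with only the knockout libraries in the model. Eln, elastin, was at 2400.3, 2258, 3072 and 2684 TPM in room air and at 2058, 1663, 2209 and 1592 TPM in hyperoxia, lower in every hyperoxia library but not called (-0.47 ± 0.21, adjusted p = 0.131). It was called with only the knockout libraries in the model (adjusted p = 0.0389) and within the later date code (-0.62, adjusted p = 0.0359). Col5a3 rose by 1.16 ± 0.17 and Col8a1 by 1.05 ± 0.14, both from a few TPM. Of 33 myofibroblast and smooth muscle genes 7 fell and 2 rose (median -0.20), and 4 fell and 4 rose within the later date code. The 2 were Igf1, insulin-like growth factor 1, from 27.0 ± 2.995 to 56.2 ± 8.48 TPM (1.02 ± 0.16), and Acta2, smooth muscle actin, from 131 ± 6.23 to 231 ± 33.4 TPM (0.80 ± 0.20). Among 41 proteinases and their inhibitors 13 rose and 5 fell (median 0.13), the falls going down to 2 without hyperoxia library 3 and 3 without hyperoxia library 1 or 4, room-air library 3 or 4 or B6 room-air library 4. Timp1, an inhibitor of matrix metalloproteinases, rose by 1.36 ± 0.20.

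Among 48 growth factors and receptors of septation 7 rose and 6 fell (median -0.092), 4 rising with the date code as a term or within the later date code, and among 55 genes of TGF-beta, BMP and Wnt signalling 9 rose and 7 fell (median -0.0082), so members of both lists moved in both directions. Pgf, placental growth factor, rose from 6.22 ± 0.594 to 15.1 ± 1.88 TPM (1.15 ± 0.15). Inhba, the activin A subunit, rose by 1.73 ± 0.27, and Bmp6 fell by 0.75 on the log2 scale. Of 17 retinoid genes 4 rose and 6 fell (median 0.020), 3 falling without room-air library 4 or with the date code as a term and 2 rising within the later date code. Beside Crabp1, Cyp26b1, which breaks down retinoic acid, was at 6.81, 6.91, 6.09 and 6.89 TPM in room air and at 2.51, 3.22, 2.75 and 2.31 TPM in hyperoxia (-1.06 ± 0.13), whereas Aldh1a1, which makes it, rose by 0.56 ± 0.13. The members of this list moved in both directions without a shared sign.

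Immune genes changed by cell type. Mast cell proteases rose: Cma1, a chymase, was at 2.28, 1.47, 2.23 and 1.52 TPM in room air and at 7.50, 18.8, 13.1 and 18.9 TPM in hyperoxia, without overlap (2.37 ± 0.32, adjusted p = 0.000184). Mcpt4, another chymase, rose by 2.52 ± 0.33, Tpsb2, a tryptase, by 2.14 ± 0.33 and Cpa3, a carboxypeptidase, by 1.35 ± 0.31. Among the hyperoxia libraries, all 4 were lowest in library 1. In all, 5 of 11 mast cell and basophil genes rose and 3 fell (median 0.45). The 3 that fell were Kit, Gata2 and Hdc, which other lung cells express too, and the call of Hdc (-0.73) was lost without room-air library 2 (-0.61, adjusted p = 0.0522), with the date code as a term (-0.34, adjusted p = 0.125) and within the later date code (-0.34, adjusted p = 0.136). Kit, the stem cell factor receptor, also of capillary endothelium, was at 65.9, 58.5, 55.7 and 67.7 TPM in room air and at 36.5, 22.2, 26.4 and 28.8 TPM in hyperoxia (-1.11 ± 0.15). Gata2 fell by 0.86 on the log2 scale where B6 lung had means of 44.8 and 79.6 TPM, a difference of responses of -1.67 (adjusted p = 9.93e-06).

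Macrophage lists moved in both directions. Of 21 alveolar macrophage genes 9 rose and 5 fell (median 0.33), and 5 rose without room-air library 4, with the date code as a term or within the later date code. Ear1, an eosinophil-type ribonuclease of these cells, was at 27.4, 29.6, 46.2 and 30.8 TPM in room air and at 9.88, 8.04, 7.74 and 10.3 TPM in hyperoxia, without overlap (-1.77 ± 0.25). Ear2, a close copy that may share its reads, fell by 1.35 on the log2 scale. Marco and Slc39a2 were among the 9 that rose. Of 25 genes of lipid-associated macrophages, the state in which Trem2 is best known, 10 rose and 2 fell (median 0.35), though 6 rose without room-air library 2 or 4 or hyperoxia library 2, and 5 with the date code as a term or within the later date code. Gpnmb, a glycoprotein of lysosomes, was at 2.43, 1.28, 5.55 and 3.16 TPM in room air and at 8.98, 9.33, 9.35 and 9.85 TPM in hyperoxia (1.44 ± 0.23, adjusted p = 0.000708). Ftl1, the ferritin light chain and also an NRF2 target, had means of 938 ± 217 and 1662 ± 117 TPM (0.85 ± 0.13). Of 27 interstitial macrophage and monocyte genes 9 rose and 3 fell (median 0.36), with 5 rises without room-air library 4 or with the date code as a term and 3 within the later date code. The falls were 1 without room-air library 2 or 3 or hyperoxia library 2 or 4 and 1 within the later date code.

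Of 19 Trem receptors and their signalling partners tested 0 rose and 3 fell (median 0.097), a share of 15.8% called that is below the 19.7% over all genes. Without hyperoxia library 4, with the date code as a term or within the later date code 1 fell. Tyrobp, the adaptor of Trem2, was at 56.0, 51.2, 78.7 and 55.1 TPM in room air and at 69.8, 91.8, 64.3 and 67.3 TPM in hyperoxia, overlapping groups (0.28 ± 0.15, adjusted p = 0.212). Inpp5d, the phosphatase SHIP1 that opposes this signal, fell from 19.3 ± 1.65 to 13.1 ± 1.17 TPM (-0.53 ± 0.10), unlike in B6 lung (means 16.04 and 21.4 TPM, difference of responses -0.91, adjusted p = 0.000329). The other two that fell were Syk and Treml4, by 0.33 and 0.44 on the log2 scale. Syk was not called without hyperoxia library 4 (adjusted p = 0.0569), with the date code as a term (-0.27, adjusted p = 0.102) or within the later date code (-0.27, adjusted p = 0.123), and Treml4 kept its call in 11 of 26 alternatives.

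Lymphocyte genes were lower in hyperoxia. Of 25 T and NK cell genes 11 fell and 0 rose (median -0.70), 7 without room-air library 2 or 4 or hyperoxia library 3 or 4, 6 with only the knockout libraries in the model, and 4 with the date code as a term or within the later date code. Tcf7, a T cell transcription factor, was at 30.9, 61.8, 24.1 and 40.2 TPM in room air and at 20.8, 20.2, 22.2 and 19.2 TPM in hyperoxia, without overlap, room-air library 2 being the highest (-0.81 ± 0.19, adjusted p = 0.00876; -0.58 with adjusted p = 0.0652 within the later date code). Lef1 fell by 1.09 on the log2 scale. Cd3g, a subunit of the T cell receptor complex, was called with overlapping groups (-1.11 ± 0.28). Of 15 B cell genes 3 fell and 0 rose (median -0.37), 1 without room-air library 1 or hyperoxia library 4 or within the later date code. Their 20% called is near the 19.7% called over all genes tested, of which 9.11% fell. Of 23 genes of dendritic cells and MHC class II 7 fell and 2 rose (median -0.27). Of 19 neutrophil genes 2 fell and 0 rose (median -0.26), which is near the background. Erythroid RNA moved the same way. The hemoglobin and erythroid genes summed to 8791 to 10280 TPM in room air and to 4516 to 5745 TPM in hyperoxia. Of the 12 tested, 10 were lower in hyperoxia without overlap, against 11.6% of all genes tested. Over all 15 libraries 0 were called, while 7 fell without B6 room-air library 1. Within the later date code of the knockout 10 fell, and 11 with only the knockout libraries in the model. Whether blood left in the lung had a part in the lymphocyte values was not tested.

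Chemokines rose from low levels. Of 28 tested 13 rose and 2 fell (median 0.57), and 7 rose with the date code as a term or within the later date code. Cxcl5, a neutrophil attractant of epithelium, was at 0.359, 0, 0.156 and 0.038 TPM in room air and at 3.78, 6.88, 8.33 and 5.35 TPM in hyperoxia, without overlap (2.60 ± 0.22, adjusted p = 2.23e-06). B6 lung had means of 0.342 and 0.571 TPM, and the responses differed by 2.39 (adjusted p = 0.000124). Ccl2, the main monocyte attractant, rose from 0.418 ± 0.259 to 4.62 ± 1.15 TPM (1.99 ± 0.26), Cxcl17, of airway epithelium, by 1.82 ± 0.27 and Cxcl10, an interferon-induced attractant of T cells, by 1.75 ± 0.26. Of 30 other cytokines and alarmins 3 rose and 0 fell (10% called, below the 19.7% over all genes; median -0.031), with 0 rises without hyperoxia library 2, 1 with the date code as a term and 2 falls without hyperoxia library 1. Of 49 interferon-stimulated genes 5 rose and 2 fell (median 0.12), 2 rising without room-air library 4 or hyperoxia library 2 or 4 and 3 without room-air library 3 or with the date code as a term, so the count did not exceed the background. Ifit3 stood out among them, at 15.5, 15.3, 19.1 and 22.4 TPM in room air against 42.1, 71.4, 41.3 and 54.4 TPM in hyperoxia (1.46 ± 0.19, adjusted p = 0.000142). The B6 median over this list was -0.61. Of its 49 members, 23 responded more positively in the knockout and 0 more negatively, against 16.4% and 8.98% of all genes tested.

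Genes that glucocorticoids induce fell. Of 26 tested 12 fell and 2 rose (median -0.34), 8 without room-air library 4, and the 2 that rose were the metallothioneins, which oxidants also induce. Zbtb16, a zinc finger protein, was at 9.81, 28.3, 24.6 and 46.9 TPM in room air and at 2.50, 2.95, 2.29 and 3.13 TPM in hyperoxia. The room-air libraries spread widely but all lay above all hyperoxia libraries (log2 difference -2.75). Pdk4, a kinase that turns off pyruvate oxidation, fell by 1.12 on the log2 scale, Fam107a by 1.04, Hif3a by 1.03 and Tsc22d3, which encodes the anti-inflammatory protein GILZ, from 258 ± 66.0 to 134 ± 13.1 TPM (-0.91 ± 0.21). Fkbp5, a chaperone that dampens the glucocorticoid receptor, was at 9.41, 17.6, 13.7 and 15.1 TPM in room air and at 7.76, 8.19, 8.96 and 10.5 TPM in hyperoxia, called with an overlap of room-air library 1 (-0.58 ± 0.17, adjusted p = 0.0236). That call was lost without room-air library 2 (-0.46, adjusted p = 0.0768) or 4 (-0.53, adjusted p = 0.0673) or hyperoxia library 1 (-0.52, adjusted p = 0.0621) or 2 (-0.55, adjusted p = 0.0616) and with the date code as a term (-0.65, adjusted p = 0.0532).

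In B6 lung the same genes had higher means in hyperoxia. Of the 26, 20 responded more negatively in the knockout and 1 more positively, against 8.98% and 16.4% of all genes tested. The median difference of responses was -1.53, where the B6 median was 1.28. Zbtb16 had B6 means of 6.99 and 85.1 TPM, and its responses differed by -6.34. Fkbp5 had B6 means of 5.92 and 74.0 TPM (difference of responses -4.01, adjusted p = 1.54e-07), and Pdk4 of 4.55 and 33.3 TPM (-3.77, adjusted p = 1.32e-05). The hyperoxia libraries of the knockout and of B6 carry different date codes. Each genotype has room-air libraries of its hyperoxia date code, so the date code could be fitted as a term. Each response is then estimated from the libraries of its hyperoxia date code alone. For B6 the room-air libraries left are the male ones, which male libraries alone also uses. With the term the differences were -7.41 for Zbtb16 (adjusted p = 2.36e-06), -4.19 for Fkbp5 (adjusted p = 3.85e-06) and -4.46 for Pdk4 (adjusted p = 8.04e-06). An oxygen response particular to 1 date code and one particular to a genotype cannot be told apart. Clock genes, 2 of 19 risen and 3 fallen (median 0.015; 1 fallen without room-air library 4 or hyperoxia library 2), and immediate early genes, 6 of 31 risen and 4 fallen (median 0.20; 3 risen without room-air library 1 or 4 or hyperoxia library 2 or 3, 2 with the date code as a term, and 2 fallen without hyperoxia library 2 or 4), had called members in both directions. Nr4a1, a nuclear receptor of the immediate early response, rose by 1.31 ± 0.29 with hyperoxia libraries spread from 23.6 to 73.5 TPM (0.95 with adjusted p = 0.14 within the later date code), where B6 means were 41.3 and 7.24 TPM (difference of responses 3.65, adjusted p = 3.91e-05), and Nr4a3 fell by 1.16 on the log2 scale.

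Over all genes tested, the knockout's response differed from that of B6 lung for 3955 genes (25.3%), 2553 more positive and 1402 more negative. This split depended on the scaling: 64.6% of the calls were positive as deposited, 50.9% after quantile normalization and 50.3% with size factors. With the date code as a term 3210 genes were called, 2274 more positive and 936 more negative, and 2749 of the 3955 were called again. Of the 3079 genes that oxygen changed in the knockout, 1074 also responded differently from B6, and 2005 were not called different. Psrc1 (1.11, adjusted p = 0.0236) and Eda2r (0.77, adjusted p = 0.0104) responded more in the knockout. Psrc1 lost this call without B6 hyperoxia library 1 (0.99, adjusted p = 0.0621) or 2 (1.03, adjusted p = 0.0567), with male libraries alone (1.12, adjusted p = 0.0579) and with the date code as a term (1.09, adjusted p = 0.0767). Eda2r lost it with male libraries alone (0.57, adjusted p = 0.0904). Cdkn1a responded less, by 1.07 log2 units (adjusted p = 0.0002), B6 means of Cdkn1a being 25.7 and 372 TPM. Gpx2, Ntrk2 and Spink5 were not called different (differences of 0.25, -0.07 and -0.02 with adjusted p of 0.469, 0.885 and 0.961).

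**Figure D4:**
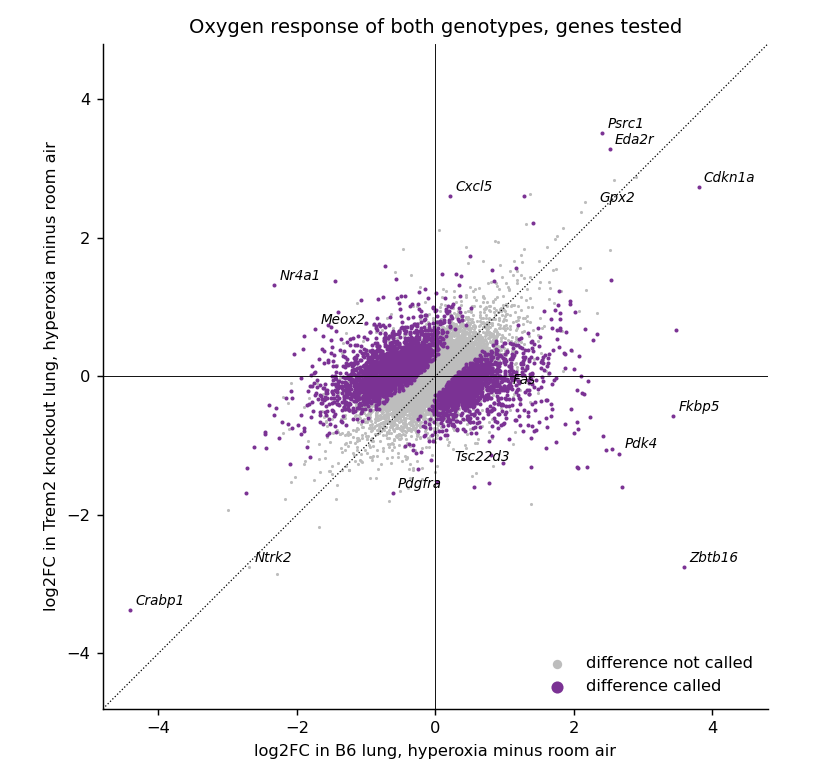
The log2 difference between hyperoxia and room air in B6 lung (horizontal) and in Trem2 knockout lung (vertical) for 15614 genes, with purple points where the responses of both genotypes differed (3955 genes) and the dotted line at equal response. Cdkn1a lies right of the line, Psrc1 and Eda2r lie above it, and Zbtb16, Fkbp5 and Pdk4 lie at the lower right, higher in B6 hyperoxia and lower in knockout hyperoxia.

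Metabolic lists moved modestly. Of 38 genes of sterol and fatty acid synthesis 11 rose and 1 fell (median 0.18), 7 rising without room-air library 4. Me1, malic enzyme, which makes NADPH and is also an NRF2 target, rose from 22.0 ± 2.72 to 44.9 ± 7.54 TPM (0.99 ± 0.11), and Fdps, farnesyl diphosphate synthase, from 19.3 ± 1.59 to 29.5 ± 1.72 TPM. Of 32 proteasome genes 13 rose and 0 fell (median 0.26), each by little, such as Psmb3 with 47.4 ± 3.51 and 64.7 ± 2.94 TPM (0.44 ± 0.08). Of 34 glycolysis and hypoxia genes 8 rose and 1 fell (median 0.13), 5 rising without room-air library 4 or hyperoxia library 3, and 5 rising and 3 falling with the date code as a term. Ldha, lactate dehydrogenase A, was at 206 ± 12.2 and 264 ± 13.8 TPM (0.36 ± 0.08). Among 35 cytochrome P450 and conjugation genes 8 rose and 6 fell (median 0.15). Ces1f, a carboxylesterase, rose by 1.61 ± 0.24, and Ugt1a6a, a glucuronosyltransferase, by 1.03 ± 0.13. Of 25 iron genes 9 rose and 2 fell (median 0.19), 4 rising without room-air library 4 or hyperoxia library 1 and 5 within the later date code. Of 34 complement and coagulation genes 7 rose and 4 fell (median 0.19), 4 rising with the date code as a term and 2 falling without room-air library 2 or 3 or hyperoxia library 4. In this list C6 fell by 1.03 on the log2 scale and Plau, urokinase, rose by 0.94 ± 0.14.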

How the data were processed

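Whole-lung poly(A) RNA was sequenced, and the authors deposited 1 table of TPM values for B6 and Trem2 knockout lung. STAR, HOMER, Bowtie2 and the build mm10 are named in the submitters' processing notes, with no versions, and strand counting was not given in the sources used here. Peak lists for p53, deposited by the authors, hold 1 score per peak and were called on pooled samples at 4-fold over input and over local tags and an FDR of 0.001, per the file headers. Each column of the table was matched to its group by its name, and room-air columns could not be matched to titled replicates. From the TPM values, log2(TPM + 1) was modelled in limma 3.58.1 (R 4.3.3, variance trend) with 1 mean per group over all 15 libraries, for genes with at least 1 TPM in at least 3 libraries, and p-values were Benjamini-Hochberg adjusted. The difference of responses was the knockout contrast minus the B6 contrast in the same model. Read totals were estimated from the steps of low TPM values, which gave whole reads within 0.15 of an integer for 100% of values used. The model was tested on simulated data. Genes were named by rule: Trem2, Trp53 and Cdkn1a, among called genes the 15 that rose most and the 15 that fell most, without overlap and with a mean of at least 5 TPM, and up to 6 called members per list, of which those in the text are a part. Members that were not called, genes near peaks and a few others were picked after their values were seen. The hairpin host entries of 3 miRNAs among the largest falls are left out, since poly(A) libraries do not measure mature miRNAs. The members and the 53 gene lists were chosen with earlier results of these data known. Alternatives covered scaling, pseudocount, filters, size of change, variance model, sex, date code, libraries in the model, peak distance and each library left out. Some genes of the lists are counted but not reported here by name.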

Additional observations from a re-analysis of the deposited data

Results flagged for a closer look

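Among the 138 genes named with a value, 50 responded to oxygen differently in knockout and B6 lung by the test of that difference. Of the 50, 29 responded more positively and 21 more negatively in the knockout. Over all genes tested, 25.3% responded differently. The differences are log2 values, knockout response minus B6 response. The genotypes' hyperoxia libraries carry different date codes, and B6 lung was of both sexes where all knockout libraries were male.

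The more negative responses were led by genes that glucocorticoids induce: Zbtb16 differed by -6.34, Fkbp5 by -4.01, Pdk4 by -3.77, Fam107a by -3.60, Hif3a by -2.62 and Tsc22d3 by -1.96. Among p53 targets Sesn1 differed by -2.03, Trp53inp1 by -1.48, Perp by -1.36, Fas by -1.22 and Cdkn1a by -1.07. In stroma and endothelium Gata2 differed by -1.67, Pdgfra by -1.07, Ptprb by -0.70 and Agtr1a by -0.67. The rest were Inpp5d at -0.91, Mt2 at -0.90, Gclc at -0.89, Lef1 at -0.88, Cdc42ep4 at -0.83 and Aldh1a1 at -0.68.

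The more positive responses were led by Nr4a1 at 3.65, Meox2 at 2.42 and Cxcl5 at 2.39. Stress genes were Atf3 at 1.66, Mthfd2 at 1.37, Hspa5 at 1.06, Gdf15 at 0.79, Nfe2l2 at 0.69 and Me1 at 0.48. Vessel and stroma genes were Slc7a10 at 1.60, Apln at 1.51, Inhba at 1.23, Igf1 at 0.84, Kdr at 0.82, Col5a3 at 0.81, Col8a1 at 0.79 and Vegfa at 0.71. Trp53 itself and p53 targets were Psrc1 at 1.11, Trp53 at 0.87, Eda2r at 0.77, Ccng1 at 0.73 and Zmat3 at 0.41. The others were Ano3 at 1.32, Plau at 1.14, Havcr1 at 1.04, Crabp1 at 1.03, Treml4 at 0.88, Top2a at 0.60 and Ldha at 0.52. The call was lost for 10 of the 50 when 1 library was left out: for Me1 and Zmat3 without any of 10 libraries, Gdf15 of 9, Inhba and Top2a of 8, Crabp1 of 7, Col5a3 and Psrc1 of 2, and Igf1 and Mt2 of 1. With the date code as a term 9 of the 50 lost it: Ccng1 (adjusted p = 0.0566), Lef1 (adjusted p = 0.164), Col5a3, Crabp1, Gdf15, Inhba, Me1, Mt2 and Psrc1. With male libraries alone 12 did: those 9 with Ccng1 at an adjusted p of 0.105 and Lef1 at 0.137, and Eda2r (adjusted p = 0.0904), Col8a1 (adjusted p = 0.065) and Top2a (adjusted p = 0.134). All 50 kept their sign in both, but both reuse part of the same libraries and share their B6 room-air libraries.

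In 17 of 276 groups of 4 knockout libraries, 1 library lay apart from the other three; chance alone gives about 1 in 20 such groups. Room-air library 4 was highest for Fas (59.6 TPM), Pdgfra (130.2 TPM), Fgf10 (23.6 TPM), Cspg4 (6.94 TPM) and Plau (4.29 TPM). Room-air library 3 was lowest for Ptprb (136 TPM), Bmp6 (38.5 TPM) and Cyp26b1 (6.09 TPM). Room-air library 2 was lowest for Krt7 (168 TPM) and Atf3 (2.10 TPM) and highest for Ntrk2 (18.98 TPM) and Cst8 (1.25 TPM). Room-air library 1 was highest for Gclc (57.6 TPM) and Nr4a3 (9.21 TPM). In hyperoxia, library 3 was highest for Hp (612 TPM), library 2 for Ugt1a6a (36.9 TPM) and library 1 lay apart for Lef1 (6.04 TPM).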

How the results depend on the processing

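The 3079 called genes kept their sign under every alternative, or 2694 of 2694 where the 5 TPM filter left fewer to test. Every alternative reuses the libraries that gave the calls, so a shared sign is no separate support. Requiring a log2 difference of at least 1 left 215 calls, 129 higher and 86 lower. Lower calls numbered 940 with the date code as a term and 878 within the later date code. For the knockout both settings give the same log2 differences and differ only in the spread, so they are not separate checks. With 1 library left out, total calls ran from 2114 to 3293, higher calls from 1144 to 1793 and lower calls from 939 to 1500. For the difference from B6, a size of at least 1 left 782 calls, 504 positive and 278 negative, and male libraries alone gave 909 negative calls and the date code as a term 936; with 1 library left out it gave 3411 to 3903 calls. Among 138 named genes, 8 that had passed missed the threshold with the date code as a term, 6 within the later date code and 50 when a difference of 1 was required. Genes called near hyperoxia peaks numbered 26 at 10 kb, 8 at 1 kb and 55 at 50 kb, and near room-air peaks 13, 2 and 36. Counts of 1 or 2 in a gene list often moved by 1 when a library was left out. The causes were not tested. No paired analysis was possible because numbering of the room-air columns starts again in each date code, so a column cannot be tied to a titled replicate. Of the room-air libraries 2 of 4 libraries and 0 of the hyperoxia libraries carry the earlier date code. Low genes such as Cxcl5, at most 0.359 TPM in room air, have differences compressed by the pseudocount.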

Other observations

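Of 22 genes of senescence-associated arrest and secretion, 12 rose and 2 fell in knockout lung (median 0.40). Cdkn1a, Gdf15, Ccl2, Timp1 and Plau are among the 12 and were described with other groups, so this count is not separate from theirs. Of 27 adventitial fibroblast and mesothelial genes 3 rose and 1 fell (median 0.13), and the 14.8% called is below the 19.7% over all genes tested. Only 1 rose without room-air library 2 or 4 or hyperoxia library 4. The rises were 0 without hyperoxia library 2, with the date code as a term or within the later date code.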
